A study of Mus musculus with 6 samples.

Results

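The 33 genes described here carry glucose into the cell, break it down to pyruvate and decide what becomes of the pyruvate. They comprise glucose carriers, the enzymes of glycolysis with their isozymes, the enzymes that set the level of the main phosphofructokinase activator, lactate dehydrogenases, pyruvate dehydrogenase kinases and the 2 monocarboxylate transporters that move lactate and pyruvate across the plasma membrane. They were chosen by symbol for their role in the pathway, with earlier results of these data known, and all 33 were found among the 24411 genes of the files. RNA-seq had been performed on bone marrow cells of C57BL/6 mice to ask how loss of Brd9, a bromodomain subunit of a SWI/SNF chromatin remodelling complex, alters the expression program of hematopoietic stem and progenitor cells. There were 3 Brd9 KO libraries (CD45.2(+) Mx1-Cre Brd9fl/fl) and 3 control libraries (CD45.2(+) Brd9fl/fl). Both groups received pIpC, a double-stranded RNA that switches on the interferon-responsive Mx1 promoter, in 3 doses of 20 mg/kg on alternate days, and were sampled 8 weeks later. In the KO mice the recombinase removes exons 4 to 6 of Brd9 in every cell in which Mx1-Cre is active, hematopoietic or not. The controls carry no Cre, so that effects of Cre and of Brd9 loss cannot be told apart. The labels speak of lineage-negative marrow of femora and tibiae and of pIpC given to transplant recipients, the series design speaks of primary mice injected 4 weeks after birth, and the study's methods speak of primary mice aged 4 months whose Lin-c-Kit+ cells were sorted. Whether recipients' own cells could be present was therefore not settled.

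Glycolysis splits glucose into pyruvate with a small gain of ATP and NADH. Pyruvate is then either reduced to lactate, which restores NAD and leaves the cell with a proton, or enters the mitochondrion, where pyruvate dehydrogenase turns it into acetyl-CoA unless a pyruvate dehydrogenase kinase has switched that enzyme off. Most steps have several isozymes that differ in tissue, in affinity and in control, and blood stem cells are known for relying on glycolysis more than their dividing offspring do.

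Library totals ran from 21151031 to 25526248 expected counts in Brd9 KO and from 23915415 to 28500168 in control. Brd9 stood at 15.6, 13.5 and 21 CPM (counts scaled to a common library size with TMM factors) in the KO libraries, against 45.9, 49.1 and 52.1 CPM in control. All KO values lay below all control values (log2 fold change -1.56 ± 0.169 (SE), adjusted p = 0.00345 in edgeR's quasi-likelihood test; exact two-sided permutation p = 0.1, the smallest that 3 libraries against 3 allow). Kit, the receptor by which the cells were sorted according to the methods, was at 269, 266 and 178 CPM in Brd9 KO and 205, 228 and 229 CPM in control. Of 7 progenitor markers (Kit, Cd34, Ly6a, Flt3, Mpo, Prtn3 and Elane) 2 were lower (28.6%, beside 6.25% of all genes) and none higher. Their summed level was 9590 to 11350 CPM in Brd9 KO and 16000 to 19170 CPM in control. Kit was a small part of these sums, which therefore say little about the sorted receptor. Of 8 macrophage markers 4 were higher (50%, beside 9.19% of all genes) and 1 lower (12.5%, beside 6.25%). The sum of these 8 was 169.7 to 235.3 CPM in Brd9 KO and 196.9 to 272.9 CPM in control. Brd9 KO replicate 3 stood apart on the second principal component (27.0% of the variance), and results are therefore also given without it. Throughout, a gene was called when its adjusted p in edgeR was under 0.1, and SD and SE rest on 3 libraries per group. The study set the same limit on the adjusted p of DESeq2. For its counts of higher and lower genes it also required a minimum fold change, which was not applied here. Labels do not say that replicates came from separate animals, while the study calls them biological triplicates. Without separate animals, p-values cover no more than the scatter of these libraries, which may be technical.

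Of the 33 genes, 30 passed the filter on low counts and were tested. In Brd9 KO, 2 were higher (Hk2 and Slc16a3), 5 were lower (Hk3, Pfkm, Pklr, Pdk1 and Slc16a1) and 23 were not called. The called share was 23.3%, beside 15.4% of all 12953 genes tested. The share called higher was 6.67%, beside 9.19% of all genes, and the share called lower was 16.7%, beside 6.25% of all genes. KO and control libraries did not overlap for 10 of the 30 genes, or 33.3%, which is near the 33.5% of all genes. The median log2 fold change of the 30 genes was 0.07, beside 0.02 over all genes. Of the 30 values 17 were positive and 13 negative. Leaving out Brd9 KO replicate 3 raised the called members to 10, and they numbered 3 without Brd9 KO replicate 1 and 4 without each other library. All genes moved likewise, from 1999 called of 12953 to 4150 of 13124 without Brd9 KO replicate 3. They numbered 641 of 13136 without Brd9 KO replicate 1 and 729 to 1010 without each other library. On log2(TPM + 1), which moved the median of all genes by 0.166, Hk2 and Slc16a3 alone were called by limma, and scaling by the library total ended the calls of Pfkm and Pdk1. In bulk RNA, fewer cells of a type and less RNA per cell cannot be told apart. Pgam2, Eno2 and Pdk4, isozymes known from muscle, neurons and fasted tissues, fell below the filter, with at most 0.338 CPM in any library.

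**Figure D1:**
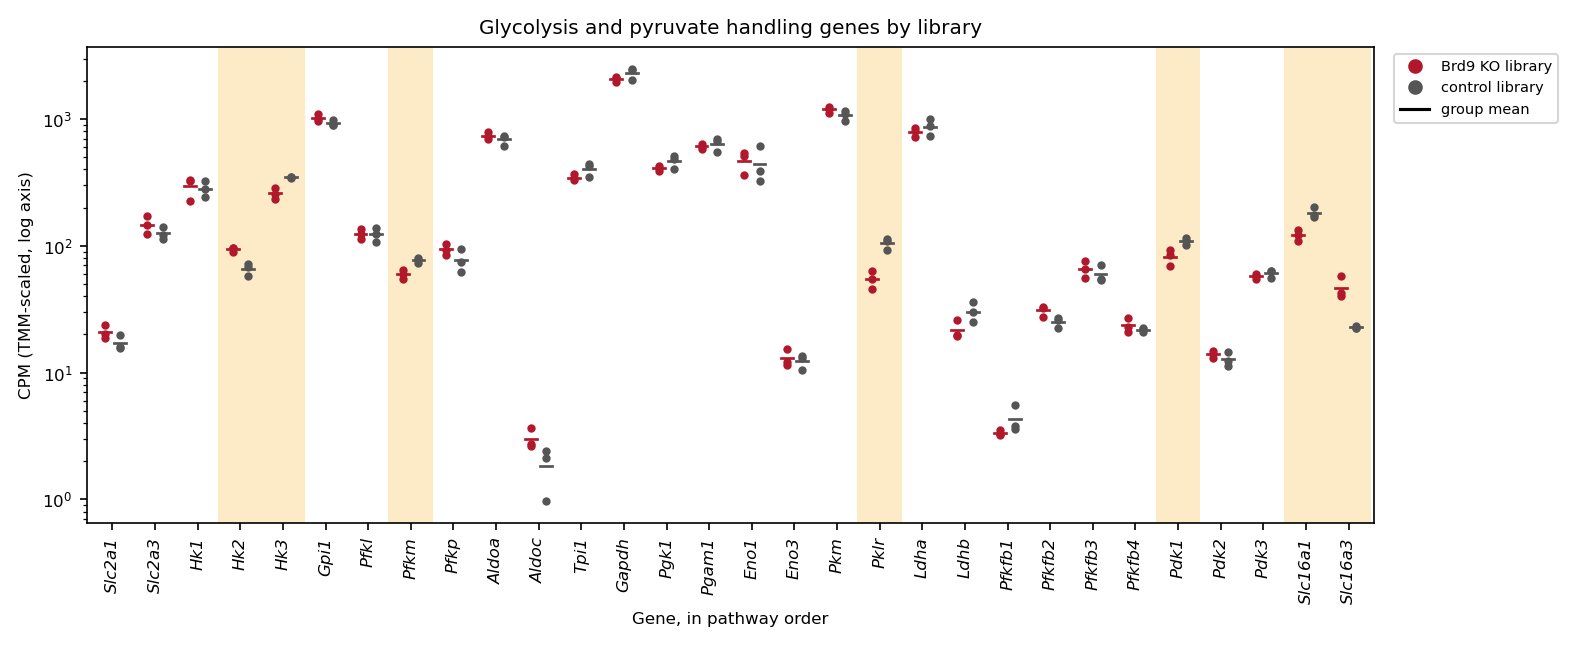
CPM on a log axis (vertical) of the 30 tested genes in pathway order (horizontal), with Brd9 KO libraries in red to the left of control libraries in grey. Points are single libraries, lines are means of 3 libraries and shading marks the 7 called genes, in each of which the red and the grey points do not overlap.

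Of the called genes, the largest rise and the second largest fall were in the 2 monocarboxylate transporters at the end of the pathway. Slc16a3 (MCT4), a low-affinity carrier known for exporting lactate from strongly glycolytic cells, stood at 40.5, 42.4 and 57.5 CPM in Brd9 KO, against 22.5, 23.2 and 22.5 CPM in control. Every KO library exceeded every control library, the controls lay between 22.5 and 23.2 CPM, and the fold was 2.06 (log2 fold change 1.04 ± 0.148, adjusted p = 0.0082, edgeR). Slc16a1 (MCT1), the widely expressed high-affinity carrier that moves lactate and pyruvate in either direction, stood at 132, 122 and 109 CPM in Brd9 KO, against 176, 203 and 170 CPM in control. All KO values lay below all control values (log2 fold change -0.59 ± 0.118, adjusted p = 0.0264, edgeR). Without Brd9 KO replicate 3, which had the highest Slc16a3 value and the lowest Slc16a1 value, the log2 fold changes were 0.865 (adjusted p = 0.002) and -0.527 (adjusted p = 0.0248).

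Because TPM is scaled by transcript length, the 2 transporters can be set against each other within a library. Slc16a3 made up 36.3%, 39.2% and 49.8% of their summed TPM in the KO libraries, against 19.3%, 17.5% and 19.7% in control. The mean share was 41.8% ± 7.10 in Brd9 KO and 18.8% ± 1.20 in control (SD, n = 3 each), a difference of 22.9 percentage points. Slc16a1 was the larger transcript in every library of both groups, at 63.7%, 60.8% and 50.2% in Brd9 KO and 80.7%, 82.5% and 80.3% in control. Only in Brd9 KO replicate 3 did the pair stand nearly level. Slc16a3 lies on chromosome 11 from 120948480 to 120960868 on the plus strand and Slc16a1 on chromosome 3 from 104638668 to 104658462 on the plus strand (GENCODE M21, mm10).

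The 250 bases before the RefSeq start of each transporter are shown because this pair moved in opposite directions. Windows of this length were searched on both strands for CACGTG, the E box bound by MYC and its partners, and for ACGTG, the core of the element bound by hypoxia-inducible factors, which every CACGTG also contains. The Slc16a3 window (chr11:120948817-120949066, plus strand, GRCm38.p6, RefSeq) held ACGTG at 27 and at 14 bases before the start and no CACGTG. Of its bases, 14 lie in an exon annotated for Slc16a3, whose GENCODE model begins upstream of the window. The Slc16a1 window (chr3:104638414-104638663, plus strand, same source) held CACGTG at 200 bases before the start. Capitals mark these matches, and the runs read 5′ to 3′.
Slc16a3: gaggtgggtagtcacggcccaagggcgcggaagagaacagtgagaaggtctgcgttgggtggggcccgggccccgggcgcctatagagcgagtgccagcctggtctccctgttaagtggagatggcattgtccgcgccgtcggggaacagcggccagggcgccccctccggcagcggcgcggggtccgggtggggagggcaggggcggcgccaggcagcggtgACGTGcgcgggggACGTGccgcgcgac
Slc16a1: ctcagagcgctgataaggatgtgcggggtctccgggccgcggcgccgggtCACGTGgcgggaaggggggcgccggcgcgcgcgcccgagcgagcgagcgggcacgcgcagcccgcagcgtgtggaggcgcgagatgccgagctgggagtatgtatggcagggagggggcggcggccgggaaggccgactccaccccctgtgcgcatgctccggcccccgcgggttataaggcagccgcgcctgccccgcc
CACGTG was found in 6.02% of all 32851 windows and in 6 of the 52 windows (11.5%) of the 32 genes that the table holds, Slc2a3 being the gene not matched. ACGTG was found in 16.6% of all windows and in 19 of the 52 (36.5%). A match of letters is a description and shows no binding.

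At the entry of the pathway, neither glucose carrier was called by edgeR, DESeq2 or limma-voom, and neither had an unadjusted p under 0.05. Slc2a3 (GLUT3), a high-affinity glucose carrier, stood at 171, 146 and 124 CPM in Brd9 KO and at 140, 122 and 114 CPM in control, so that the groups overlapped (log2 fold change 0.23, adjusted p = 0.327, edgeR, 95% interval -0.10 to 0.57). Without Brd9 KO replicate 3 it was called higher (0.342, adjusted p = 0.0941). Slc2a1 (GLUT1), the basal carrier, had 18.6 to 23.6 CPM in Brd9 KO and 15.6 to 19.9 CPM in control (log2 fold change 0.27, adjusted p = 0.276). By TPM, Slc2a1 held 18.3% ± 0.763 of the pair in Brd9 KO and 17.8% ± 0.837 in control.

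The hexokinases, which trap glucose by phosphorylation, moved in both directions. Hk2, the inducible isozyme that can bind mitochondria, stood at 96.4, 96.2 and 90.0 CPM in Brd9 KO, against 57.3, 71.7 and 67.5 CPM in control. Each KO library exceeded each control library (log2 fold change 0.52 ± 0.112, adjusted p = 0.0325, edgeR). The value was 0.555 (adjusted p = 0.0201) without Brd9 KO replicate 3, and the call was lost without Brd9 KO replicate 1 (0.512, adjusted p = 0.123). Hk3, the hexokinase of myeloid cells, stood at 233, 256 and 288 CPM in Brd9 KO, against 347, 346 and 345 CPM in control. All KO values lay below the controls, which were almost identical (log2 fold change -0.42 ± 0.108, adjusted p = 0.0558, edgeR). Without Brd9 KO replicate 3 the value was -0.502 (adjusted p = 0.0183), and leaving out any one of the other 5 libraries gave adjusted p from 0.13 to 0.222. Hk1, the housekeeping isozyme, stood at 327, 332 and 226 CPM in Brd9 KO and 241, 324 and 279 CPM in control, with overlap (log2 fold change 0.07, adjusted p = 0.832).

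As shares of the hexokinases' summed TPM, Hk2 took 10.1%, 9.61% and 9.74% in Brd9 KO, against 5.59%, 6.32% and 6.30% in control, without overlap. The larger shares of Hk1 and Hk3 did overlap between groups. Hk3 took 44.0%, 45.8% and 57.4% in Brd9 KO and 62.8%, 55.3% and 58.7% in control, and it was the most abundant hexokinase transcript in every library except Brd9 KO replicate 1. Marker levels of granulocytes are given beside these genes. Of 9 neutrophil markers 1 was lower (11.1%, beside 6.25% of all genes) and none higher, with a summed level of 1184 to 7751 CPM in Brd9 KO and 1696 to 3154 CPM in control, the highest in Brd9 KO replicate 3, which also had the highest KO value of Hk3 and of Slc16a3. That library decided the direction in edgeR, where the median log2 fold change of the 9 markers was 0.35 with it and -1.16 without it. With it the direction also depended on the method, the median being -0.205 by limma-voom and 0.022 on log2(TPM + 1). Without Brd9 KO replicate 3, 5 of the 9 were lower, beside 2009 of all 13124 genes, and all 9 were negative. Of 8 eosinophil, basophil and mast cell markers 7 were higher (87.5%, beside 9.19% of all genes) and 1 lower (12.5%, beside 6.25%). The counts were the same without Brd9 KO replicate 3, when 2141 of 13124 genes were higher. The sum of these 8 was 4931 to 8920 CPM in Brd9 KO and 2376 to 3210 CPM in control, and no marker of either list was at 0. Their part in the values of Hk3 and Slc16a3 was not tested.

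Hk2 lies on chromosome 6 from 82725025 to 82774454 on the minus strand and overlaps the antisense gene Gm17034. Hk3 lies on chromosome 13 from 55005985 to 55021385 on the minus strand and overlaps Unc5a on the other strand. The sources disagree on whether library preparation kept strand (labels no, methods yes), and 15 of the 33 genes overlap a gene on the opposite strand, whose reads may be included. The 250 bases before the Hk2 start (chr6:82774455-82774704, minus strand, GRCm38.p6, RefSeq) are shown as the promoter of the other gene that was higher. ACGTG was read there on the opposite strand, as CACGT, at 226 and at 52 bases before the start, and is in capitals. The motif was not confined to higher genes. Of the lower genes, Hk3, Pfkm and Slc16a1 also held ACGTG in a window, and Pklr and Pdk1 did not. In all, 15 of the 32 genes held it.
Hk2: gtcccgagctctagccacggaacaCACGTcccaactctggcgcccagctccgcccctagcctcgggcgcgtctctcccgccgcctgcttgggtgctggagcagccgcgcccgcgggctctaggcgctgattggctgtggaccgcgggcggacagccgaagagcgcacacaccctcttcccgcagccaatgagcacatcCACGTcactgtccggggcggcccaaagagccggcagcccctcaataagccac

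**Figure D2:**
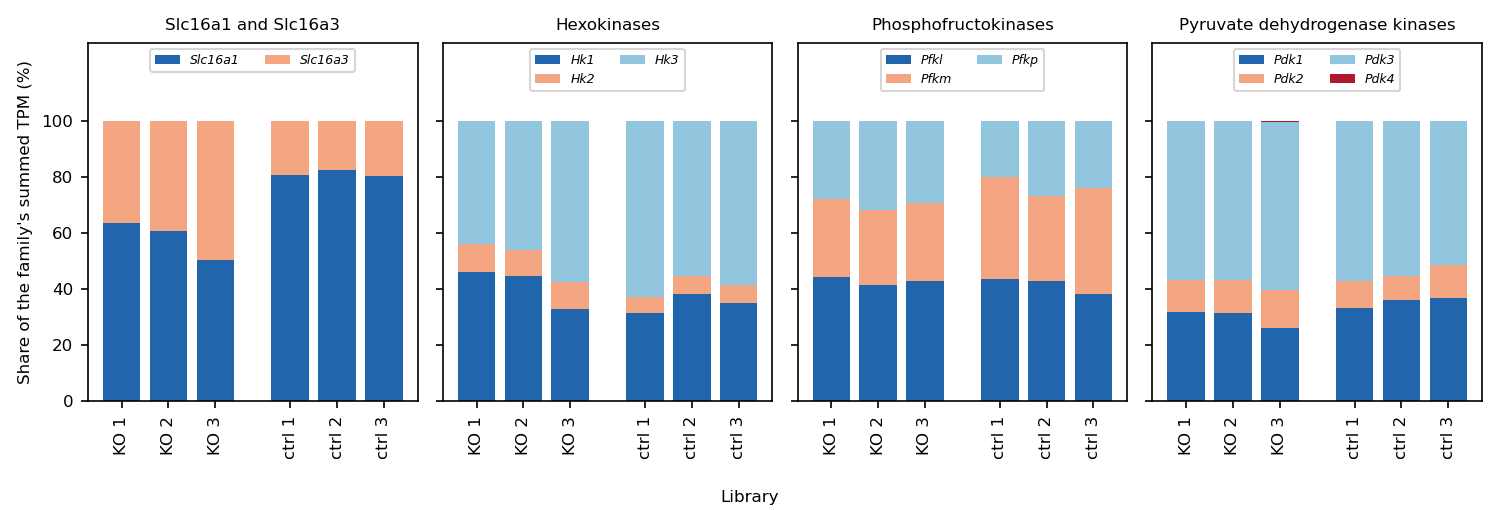
Share of each family's summed TPM in percent (vertical) per library (horizontal), Brd9 KO libraries left of control libraries, for 4 families of isozymes. Slc16a3 takes 36.3% to 49.8% of the transporter pair in Brd9 KO and 17.5% to 19.7% in control, and Hk2 takes 9.61% to 10.1% of the hexokinases in Brd9 KO and 5.59% to 6.32% in control.

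Among the upper steps of glycolysis 1 of 6 genes was called (16.7%, near the 15.4% of all genes). Pfkm, the muscle-type subunit of phosphofructokinase, the committed step, stood at 64.2, 59.5 and 54.8 CPM in Brd9 KO, against 77.4, 73.1 and 79.8 CPM in control. All KO values were below all control values (log2 fold change -0.37 ± 0.0995, adjusted p = 0.0642, edgeR). The call was kept without Brd9 KO replicate 3 (-0.313, adjusted p = 0.0657) and was lost without any one of the other 5 libraries (adjusted p from 0.121 to 0.184). Pfkm lies on chromosome 15 from 98092589 to 98132451 on the plus strand and overlaps Senp1 on the other strand.

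The other phosphofructokinase subunits were not called. Pfkl, the liver-type subunit, stood at 136, 124 and 113 CPM in Brd9 KO and 124, 138 and 108 CPM in control (log2 fold change 0.01, adjusted p = 0.956, 95% interval -0.28 to 0.30). Pfkp, the platelet-type subunit, stood at 92.7, 104 and 84.6 CPM in Brd9 KO and 62.4, 94.4 and 74.2 CPM in control (0.28, adjusted p = 0.294). As shares of the subunits' summed TPM, however, Pfkp was higher in every KO library (27.8%, 31.8% and 29.4%, against 20.1%, 26.9% and 24.1% in control) and Pfkm lower (27.9%, 26.6% and 27.9%, against 36.4%, 30.4% and 37.8%). Of 7 megakaryocyte and platelet markers 5 were higher (71.4%, beside 9.19% of all genes) and none lower. Their summed level was 3035 to 4090 CPM in Brd9 KO and 1394 to 2350 CPM in control, and none was at 0. Their part in the share of Pfkp was not tested. Pfkl held 42.9% ± 1.36 in Brd9 KO and 41.4% ± 2.90 in control.

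Of the remaining upper enzymes, Gpi1, which turns glucose phosphate into fructose phosphate, stood at 962, 999 and 1090 CPM in Brd9 KO and 905, 988 and 900 CPM in control (log2 fold change 0.13, adjusted p = 0.476). Aldoa, the aldolase that splits the sugar, stood at 736, 698 and 789 CPM in Brd9 KO and 727, 730 and 617 CPM in control (0.10, adjusted p = 0.605). Both overlapped between groups. Aldoc, a minor aldolase here with at most 0.275% of the aldolase TPM, was above control in every KO library (2.62 to 3.64 CPM, against 0.97 to 2.42 CPM) without passing the test (adjusted p = 0.234).

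Among the lower steps of glycolysis the abundant enzymes overlapped between groups. Gapdh, which makes the NADH of the pathway, stood at 2160, 2110 and 1950 CPM in Brd9 KO and 2430, 2500 and 2020 CPM in control (log2 fold change -0.16, adjusted p = 0.442). Tpi1, which interconverts the 2 triose phosphates, stood at 366, 329 and 341 CPM in Brd9 KO and 439, 429 and 352 CPM in control (-0.24, adjusted p = 0.236). Pgk1, the first ATP-yielding enzyme, stood at 425, 391 and 413 CPM in Brd9 KO and 483, 512 and 401 CPM in control (-0.18, adjusted p = 0.35). In all of these, control replicate 3 lay among the KO libraries. Pgam1, the phosphoglycerate mutase, stood at 640, 585 and 597 CPM in Brd9 KO and 691, 667 and 552 CPM in control (-0.07, adjusted p = 0.745). The signs of Gapdh, Pgk1 and Pgam1 turned positive when TPM was tested in place of counts, that of Pgam1 also when scaling by the library total, and the deposited expected counts of Gapdh were not whole in any library, which marks reads shared with other loci.

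Enolase could not be read from Eno1 alone, because RSEM divided its reads with the near-identical copy Eno1b. Eno1 stood at 512, 536 and 360 CPM in Brd9 KO and 327, 617 and 389 CPM in control (log2 fold change 0.08, adjusted p = 0.859). The share of the pair's counts that Eno1 received was 76.7%, 82.3% and 53.5% in Brd9 KO and 45.7%, 72.3% and 61.6% in control. The sum of both stood at 667, 652 and 673 CPM in Brd9 KO, against 715, 853 and 632 CPM in control. Summing turned the sign (log2 fold change -0.14 ± 0.13, adjusted p = 0.501), and the KO libraries then spanned a far smaller range than either gene alone. Eno3, the muscle enolase, had 11.5 to 15.3 CPM in Brd9 KO and 10.4 to 13.5 CPM in control (adjusted p = 0.799).

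**Figure D3:**
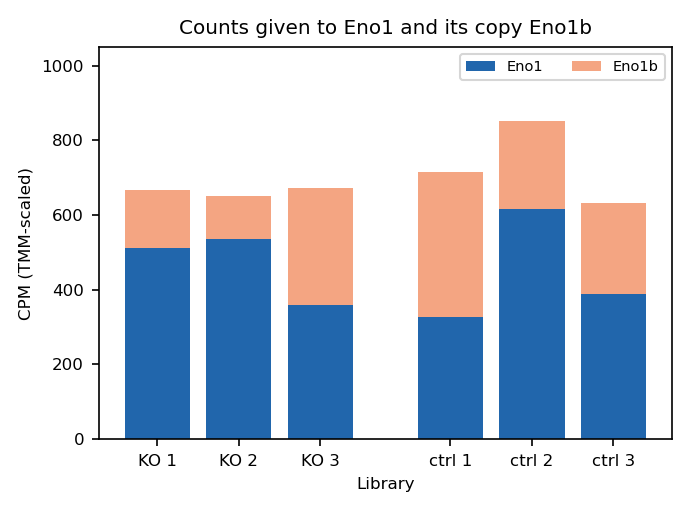
CPM (vertical, stacked bars) given to Eno1 and to its copy Eno1b in each library (horizontal), Brd9 KO left of control. The division between the copies changes from library to library, while the stacked total is 652 to 673 CPM in Brd9 KO and 632 to 853 CPM in control.

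Pklr, the pyruvate kinase of liver and red cells, showed the largest fall of the 30 genes. It stood at 54.2, 63.5 and 45.6 CPM in Brd9 KO, against 91.8, 110 and 114 CPM in control. All KO values were below all control values, and 51.9% of the control level was left (log2 fold change -0.95 ± 0.147, adjusted p = 0.0114, edgeR). The call was kept without Brd9 KO replicate 3 (-0.835, adjusted p = 0.00687) and without each other library in turn. Pkm, which encodes the pyruvate kinases of most other tissues, stood at 1240, 1120 and 1210 CPM in Brd9 KO and 1090, 1160 and 961 CPM in control and was not called (0.15, adjusted p = 0.425). Pklr accordingly made up 3.64%, 4.66% and 3.18% of pyruvate kinase TPM in Brd9 KO, against 6.98%, 7.56% and 9.36% in control.

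Erythroid markers were in part lower as well. Of 9 such markers 5 were lower (Klf1, Epor, Hbb-bt, Car1 and Rhag; 55.6%, beside 6.25% of all genes) and none higher. Leaving out Brd9 KO replicates 1, 2 or 3 in turn gave 2, 3 or 7 lower, and 2 were lower on log2(TPM + 1). Over all genes these fits gave 179, 223 or 2009 lower, and 224 on log2(TPM + 1). Their summed level was 1380, 1394 and 2121 CPM in Brd9 KO and 1917, 1966 and 2281 CPM in control, and their summed TPM was 3923 ± 920.0 in Brd9 KO and 3983 ± 779 in control. Brd9 KO replicate 3 had the lowest Pklr value and the highest erythroid sum of the KO libraries. None of the 9 markers was at 0, and their part in the fall of Pklr was not tested. Pklr lies on chromosome 3 from 89136142 to 89146784 on the plus strand and overlaps Hcn3 on the other strand. The 250 bases before the first of its 2 RefSeq starts (chr3:89135892-89136141, plus strand, GRCm38.p6) are shown because the red cell form of the enzyme has its own start. They held AGATAA, a motif of GATA factors, at 35 bases before the start, and a CACCC box, which Klf1 is known to bind, at 68 bases before the start, read on the opposite strand as GGGTG. Both are in capitals.
Pklr: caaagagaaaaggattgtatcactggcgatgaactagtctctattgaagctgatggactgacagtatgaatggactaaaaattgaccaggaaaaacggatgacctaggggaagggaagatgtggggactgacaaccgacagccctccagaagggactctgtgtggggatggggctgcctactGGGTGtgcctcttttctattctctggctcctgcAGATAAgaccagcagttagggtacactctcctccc
On both strands, AGATAA was found in 9.99% and CACCC in 52.0% of all 32851 windows, and in 15.4% and 63.5% of the 52 windows of the glycolysis genes.

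At the fork of pyruvate, the lactate dehydrogenases were not called by edgeR or limma-voom. Ldha, the isozyme that favours lactate formation, stood at 846, 724 and 799 CPM in Brd9 KO and 880, 1000 and 739 CPM in control (log2 fold change -0.15, adjusted p = 0.524). Ldhb, the isozyme that favours pyruvate, stood at 19.7, 19.5 and 25.9 CPM in Brd9 KO and 30.0, 24.9 and 35.8 CPM in control. Only Brd9 KO replicate 3 and control replicate 2 overlapped (-0.48 ± 0.174, unadjusted p = 0.0246, adjusted p = 0.126, edgeR). DESeq2 called it lower (adjusted p = 0.0764), as did edgeR without Brd9 KO replicate 3 (-0.63, adjusted p = 0.0358). Ldha made up 95.9% to 97.0% of lactate dehydrogenase TPM in Brd9 KO and 94.0% to 96.9% in control.

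Pyruvate dehydrogenase kinases close the mitochondrial branch, and 1 of the 3 tested was called (33.3%, beside 15.4% of all genes). Pdk1, the isozyme known as a hypoxia target, stood at 92.5, 84.0 and 68.8 CPM in Brd9 KO, against 102, 115 and 109 CPM in control, without overlap (log2 fold change -0.41 ± 0.129, adjusted p = 0.094, edgeR). This call was the weakest of the 7. It held without Brd9 KO replicate 3 (-0.301, adjusted p = 0.0884) and was lost without any one of the other 5 libraries (adjusted p from 0.134 to 0.204). Pdk3, the most abundant kinase by TPM in every library, stood at 59.8, 54.6 and 57.3 CPM in Brd9 KO and 63.3, 63.7 and 55.2 CPM in control (-0.08, adjusted p = 0.606). Pdk2 had 12.9 to 14.8 CPM in Brd9 KO and 11.3 to 14.5 CPM in control (adjusted p = 0.614). Pdk1 lies on chromosome 2 from 71873224 to 71903858 on the plus strand.

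The 4 bifunctional enzymes that make and degrade the allosteric activator of phosphofructokinase were not called by edgeR, DESeq2 or limma-voom, and 1 of them, Pfkfb2, had an unadjusted p under 0.05 in edgeR. Pfkfb3, the form with the strongest synthetic activity, stood at 65.1, 75.7 and 55.5 CPM in Brd9 KO and 53.3, 70.6 and 54.3 CPM in control (log2 fold change 0.14, adjusted p = 0.587). Pfkfb2 was above control in every KO library (32.7, 32.5 and 27.5 CPM, against 22.4, 26.0 and 26.8 CPM; 0.30, adjusted p = 0.162), and it was called higher without Brd9 KO replicate 3 (adjusted p = 0.0615). Pfkfb1 was below control in every KO library at 3.23 to 3.52 CPM, against 3.57 to 5.56 CPM (adjusted p = 0.344). Pfkfb4 overlapped (20.9 to 27.1 CPM in Brd9 KO, 21 to 22.5 CPM in control, adjusted p = 0.58).

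**Figure D4:**
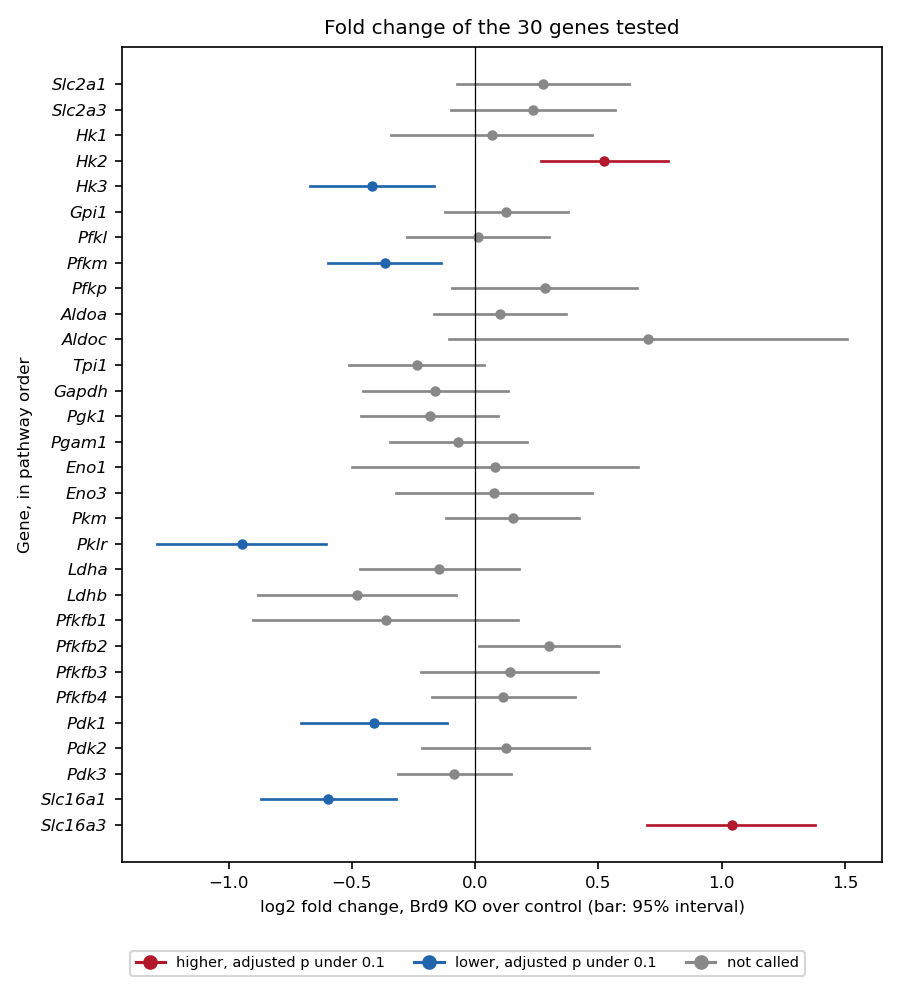
Log2 fold change, Brd9 KO over control (horizontal), with its 95% interval for the 30 tested genes in pathway order (vertical). Slc16a3 at 1.04 and Hk2 at 0.52 lie above 0 in red, Pklr at -0.95, Slc16a1 at -0.59, Hk3 at -0.42, Pdk1 at -0.41 and Pfkm at -0.37 lie below it in blue, and the 23 genes not called are grey.

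Per transcript length, Gapdh led the pathway in both groups, with 2560 ± 450.0 TPM in Brd9 KO and 2470 ± 373 TPM in control (SD, n = 3 each). Aldoa (801 ± 70.9 TPM in Brd9 KO, 644 ± 86.8 TPM in control), Ldha (789 ± 105 TPM in Brd9 KO, 754 ± 164 TPM in control) and Pkm (758 ± 94.8 TPM in Brd9 KO, 587 ± 93.2 TPM in control) followed. Aldoa came before Ldha in Brd9 KO and after it in control, and neighbours among these 3 differed by less than the larger of their SDs. The 33 genes together summed to 7835 ± 1200 TPM in Brd9 KO and 7085 ± 1170 TPM in control. Their summed CPM lay the other way in the mean of the groups and overlapped, at 9579, 9177 and 9054 CPM in Brd9 KO and 9662, 10470 and 8654 CPM in control.

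Neighbouring pathways were described by lists chosen for their textbook role. Genes that carry pyruvate into the mitochondrion and oxidise it had a median log2 fold change of -0.23, with 1 of 10 called lower (10%, beside 6.25% of all genes) and none higher (edgeR). DESeq2 called 3 lower and limma-voom 1, beside 1260 and 782 of all 12953 genes. In edgeR 6 had an unadjusted p under 0.05. The called gene was Pdha1, the catalytic subunit of pyruvate dehydrogenase that the Pdk kinases phosphorylate, at 172, 167 and 152 CPM in Brd9 KO, against 223, 212 and 207 CPM in control (-0.38 ± 0.0973, adjusted p = 0.0522, edgeR). Its call was kept without Brd9 KO replicate 3 but lost without each of the other 5 libraries in turn, with adjusted p from 0.119 to 0.15. In 6 of the 10 genes (Mpc1, Pdha1, Pdhb, Dlat, Dld and Pdhx) every KO library was below every control library, and in Pdp1, a phosphatase that reactivates the enzyme, every KO library was above. That is 70% without overlap, beside 33.5% of all genes.

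In the citric acid cycle 3 of 20 genes were lower, none was higher and 17 were not called, a called share of 15%, beside 15.4% of all genes (6.25% called lower), with a median of -0.30 and 19 negative values. Suclg1, a succinate-CoA ligase subunit, stood at 122, 108 and 126 CPM in Brd9 KO, against 183, 162 and 137 CPM in control (-0.43, adjusted p = 0.0872, edgeR). Idh2, the mitochondrial NADP isocitrate dehydrogenase (-0.36, adjusted p = 0.0951), and Fh1, the fumarase (-0.33, adjusted p = 0.0939), were the others called. The call of Suclg1 was lost without Brd9 KO replicates 1 or 2 or control replicates 1 or 2 (adjusted p from 0.185 to 0.244), that of Idh2 without any library (0.102 to 0.235) and that of Fh1 without any library except Brd9 KO replicate 3 (0.127 to 0.243). DESeq2 called 10 of the 20 lower, beside 1260 of all 12953 genes. Leaving out 1 library gave between 0 and 7 lower, beside 179 to 2009 of all genes. The 7 came without Brd9 KO replicate 3, when 2009 of 13124 genes were lower. The medians of these lists depend on scaling. On log2(TPM + 1), where the median of all genes moved up by 0.166, the pyruvate entry list stood at -0.01 and the citric acid cycle at -0.08, or -0.194 and -0.261 relative to all genes, and neither list held a called gene.

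In the pentose phosphate pathway, which branches off after hexokinase, 1 of 10 genes was lower (10%, beside 6.25% of all genes), none was higher and the median was -0.19 (0.02 on log2(TPM + 1)). This was Prps1, which makes the ribose donor for nucleotides (-0.40, adjusted p = 0.0552, edgeR). On log2(TPM + 1), limma did not call Prps1 (adjusted p = 0.528). Without Brd9 KO replicate 3, 5 of the 10 were lower, beside 2009 of all 13124 genes, and without any other library none was. Of 14 genes of gluconeogenesis and glycogen, Pygl, a glycogen phosphorylase, was higher (187, 201 and 266 CPM in Brd9 KO, against 144, 142 and 155 CPM in control, 0.57, adjusted p = 0.0524). G6pc3, the ubiquitous glucose phosphatase (-0.52, adjusted p = 0.0394), Fbp1, which reverses phosphofructokinase (-1.12, adjusted p = 0.072), and Pck2, the mitochondrial PEP carboxykinase (-0.36, adjusted p = 0.0938), were lower (21.4%, beside 6.25% of all genes, with 7.14% higher, beside 9.19%), with a median of 0.02 for the list. The call of Pygl was lost without any control library (adjusted p from 0.121 to 0.154), that of G6pc3 without Brd9 KO replicate 1 or 2 (0.141 and 0.123), that of Pck2 without any library except Brd9 KO replicate 3 (0.128 to 0.26), and that of Fbp1 without any library except Brd9 KO replicate 3 and control replicate 2 (0.176 to 0.209). On log2(TPM + 1), limma called Pygl and Fbp1 (adjusted p = 0.015 and 0.0982) but not G6pc3 or Pck2 (0.181 and 0.494).

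None of 8 genes of the NADH shuttles, which pass reducing power from glycolysis into mitochondria, was called by edgeR or limma-voom. DESeq2 called 2 of the 8, beside 2750 of all 12953 genes, and 2 had an unadjusted p under 0.05 in edgeR. Got2, the mitochondrial aspartate aminotransferase, stood at 203, 199 and 164 CPM in Brd9 KO and 248, 264 and 212 CPM in control (-0.36, adjusted p = 0.127, edgeR; 0.0696 by DESeq2). Slc25a11, the malate carrier, stood at 113, 105 and 150 CPM in Brd9 KO and 130, 104 and 111 CPM in control (0.09, adjusted p = 0.743). Among 15 further isoforms of glycolysis and lactate handling, Ldhc, the testis lactate dehydrogenase, was higher at 4.38, 3.49 and 7.81 CPM in Brd9 KO, against 2.80, 1.98 and 1.69 CPM in control (1.27, adjusted p = 0.0679, edgeR), a call lost without Brd9 KO replicate 1 or control replicate 2 or 3 (0.135 to 0.179). Minpp1, an inositol phosphatase that also acts on bisphosphoglycerate, was lower (142, 147 and 140 CPM in Brd9 KO, against 221, 223 and 227 CPM in control, -0.65, adjusted p = 0.00731), and was called without each library in turn. On log2(TPM + 1), limma kept the call of Ldhc (adjusted p = 0.0237) but not that of Minpp1 (-0.428, adjusted p = 0.146). These 2 were 13.3% of the 15, beside 15.4% of all genes.

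**Figure D5:**
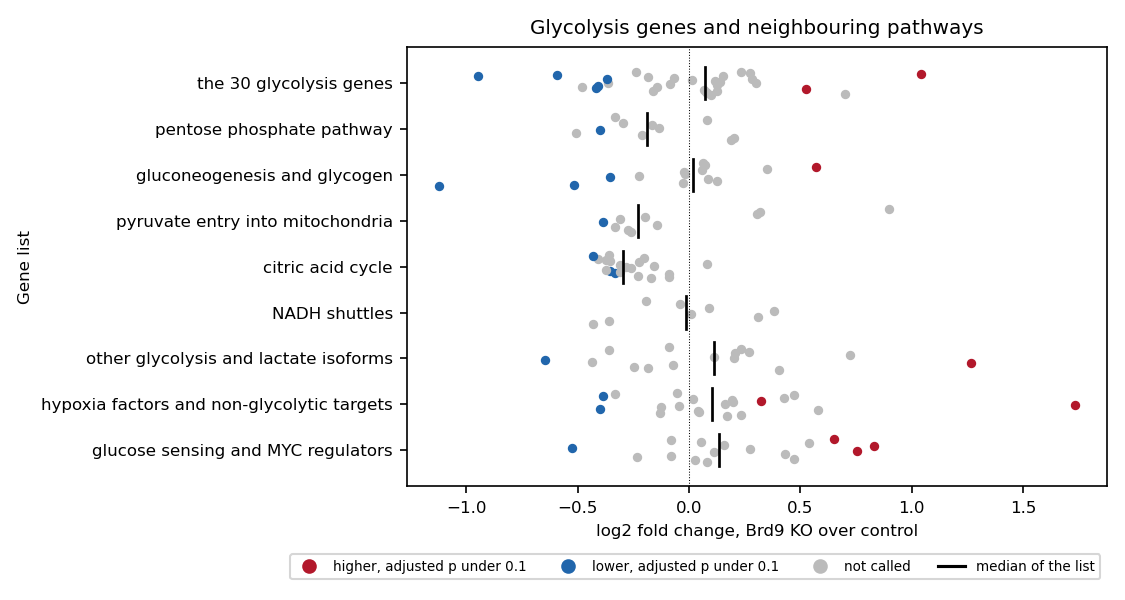
Log2 fold change, Brd9 KO over control (horizontal), for single genes (points) of the 30 tested glycolysis genes and of 8 neighbouring lists (vertical), with black lines at list medians. The citric acid cycle (median -0.30) and pyruvate entry (median -0.23) lie left of 0, and the glycolysis genes (median 0.07) spread to both sides.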

How the data were processed

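RNA-seq of poly(A)-selected RNA was performed in 3 Brd9 KO and 3 control libraries. The authors aligned reads to mm10 with STAR and quantified genes with RSEM inside an nf-core pipeline, as the study's methods state. The deposited files hold expected counts, which RSEM estimates by dividing shared reads and which need not be whole, together with the TPM and an effective transcript length that the authors' run gave. TPM moved the median of all genes by 0.166 on the log2 scale and is used for shares within families. Expected counts were rounded, filtered with filterByExpr, scaled by TMM and compared with edgeR 4.0.16 (quasi-likelihood, no covariate) in R 4.3.3, with Benjamini-Hochberg adjustment over 12953 genes. Totals of 21151031 to 28500168 counts and a common biological coefficient of variation of 0.175 set the precision. SE is the log2 fold change over the root of F. The procedure was also run on simulated counts with the same dispersion for every gene and no deviating library. This was a check of the code and did not cover the scatter of these libraries. Alternatives were other scalings, filters, a stricter threshold, DESeq2 1.42.0, limma-voom and limma 3.58.1 on log2(TPM + 1) or log2(TPM + 0.1), a robust fit, a replicate block, and leaving out each library. Summing Eno1 and Eno1b was chosen after seeing the data. Shares were also recomputed from counts per effective length, which within a library are proportional to TPM. That recomputation could only return the same shares and was no separate check.

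The members and lists were chosen with earlier results of these data known. Called genes, uncalled members with a mean of at least 50 CPM and the most abundant member of a role got values per library. Of each pathway list, up to 4 called genes with the smallest p were named, or the 2 most abundant where none was called. Positions came from GENCODE M21 and promoters from RefSeq on GRCm38.p6.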

Additional observations from a re-analysis of the deposited data

How the results depend on the processing

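Limits came from 3 libraries per group, from the weight of single libraries among them and from the choice between counts and TPM. Slc16a3 was called under all 17 alternatives run on the whole table, Hk2 under 16, Pklr and Slc16a1 under 15, Hk3 under 10, Pfkm under 9 and Pdk1 under 8, each with its direction kept. Leaving out 1 library gave 641 to 4150 called genes (462 to 2141 higher, 179 to 2009 lower) and 3 to 10 called glycolysis genes (1 to 4 higher, 2 to 6 lower), with their median log2 fold change between -0.0098 and 0.0686. The lowest count of members, 3, came without Brd9 KO replicate 1 and the highest, 10, without Brd9 KO replicate 3, while each other library left 4. At an adjusted p under 0.05, 1015 genes were called (672 higher, 343 lower), 4 of them members (2 lower).

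Scaling by the library total moved the median of all genes by 0.0861 and called 1402 genes higher and 489 lower, and 3 members lower, with a member median of 0.16. DESeq2 called 1260 genes lower. On log2(TPM + 1) and log2(TPM + 0.1), 224 and 215 genes were lower, 2 members were called (Hk2 and Slc16a3) and 0 were lower by limma (1 at an unadjusted p under 0.05 on either scale), where counts gave 5. The member medians were 0.265 and 0.276, and the median of all genes moved by 0.166 and 0.205.

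With the 2 TPM pseudocounts, in that order, Gapdh stood at 0.0502 and 0.0502, Pgk1 at 0.0385 and 0.0386, Pgam1 at 0.154 and 0.154, Ldha at 0.0787 and 0.0788, and Pdk3 at 0.13 and 0.133. By library total, Pgam1 stood at 0.0221 and Pdk3 at 0.00324. Eno1 stood at -0.143 when summed with Eno1b. Leaving out 1 library gave ranges of -0.0343 to 0.226 for Hk1, -0.076 to 0.095 for Pfkl, -0.101 to 0.387 for Eno1, -0.0567 to 0.154 for Eno3 and -0.0806 to 0.19 for Slc25a11. The cause was not tested.

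Deviations of same-numbered libraries from their group means correlated at -0.0887, 0.469 and 0.0203, and those of differently numbered libraries at -0.459 to 0.384. With deviations taken from means of 3 libraries, these values cannot decide whether replicate numbers pair the samples. A replicate block called 2077 of all genes and 7 members, without Pdk1 (-0.418, adjusted p = 0.1) and with Ldhb (-0.476, adjusted p = 0.0547, edgeR).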

Other observations

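Regulators known to act on glycolysis genes were looked at through 2 further lists. Of 20 hypoxia factors and non-glycolytic hypoxia targets, 2 were higher and 2 lower in Brd9 KO (edgeR, adjusted p under 0.1), 10% each way beside 9.19% and 6.25% of all genes, with a median log2 fold change of 0.10. Epas1, an oxygen-regulated hypoxia factor subunit, stood at 2.62, 4.33 and 3.28 CPM in Brd9 KO, against 0.757, 1.56 and 0.773 CPM in control (1.73 ± 0.357, adjusted p = 0.0294), and the call was lost without control replicate 3 (adjusted p = 0.104). Of 10 stromal and endothelial markers 8 were higher (80%, beside 9.19% of all genes) and none lower, with a median of 1.95. Their summed level was 94.9 to 145 CPM in Brd9 KO and 29.7 to 42.3 CPM in control. None of these markers was at 0, and their part in the rise of Epas1 was not tested. Hif1an, an asparagine hydroxylase that restrains the hypoxia factors, was higher (0.32, adjusted p = 0.0971). Egln1, the prolyl hydroxylase that marks them for degradation (-0.40, adjusted p = 0.0538), and P4ha1, a collagen prolyl hydroxylase (-0.39, adjusted p = 0.0963), were lower. The calls of Egln1, Hif1an and P4ha1 were kept without Brd9 KO replicate 3 but lost without each of the other 5 libraries in turn (adjusted p from 0.112 to 0.202 for Egln1, 0.157 to 0.303 for Hif1an and 0.109 to 0.25 for P4ha1). On log2(TPM + 1), limma called Epas1 (adjusted p = 0.0419) but not Egln1, Hif1an or P4ha1 (0.471, 0.229 and 0.68). Hif1an and P4ha1 were not called by limma-voom either (adjusted p = 0.106 and 0.11).

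Of 16 genes of glucose sensing and of the MYC network, 3 were higher (18.8%, beside 9.19% of all genes) and 1 lower (6.25%, the same as over all genes), with a median of 0.13. Myc, a transcription factor known to drive glycolysis genes, stood at 207, 220 and 186 CPM in Brd9 KO, against 305, 301 and 276 CPM in control, without overlap (-0.52 ± 0.106, adjusted p = 0.028, edgeR). Its call was lost without Brd9 KO replicate 1 (adjusted p = 0.116) or control replicate 2 (adjusted p = 0.101). Mxd1, which competes with MYC for their shared partner, stood at 77.0, 74.2 and 92.6 CPM in Brd9 KO, against 52.7, 42.7 and 49.1 CPM in control (0.75 ± 0.127, adjusted p = 0.0148), and the family member Mycn stood at 16.7, 15.1 and 13.7 CPM in Brd9 KO, against 10.4, 6.62 and 8.54 CPM in control (0.83 ± 0.191, adjusted p = 0.0406). Mxd1 was called without each library in turn, and Mycn lost its call without Brd9 KO replicate 1 or 2 or control replicate 2 or 3 (adjusted p from 0.103 to 0.145). Txnip, a brake on glucose uptake, stood at 397, 391 and 547 CPM in Brd9 KO, against 315, 230 and 306 CPM in control (0.65 ± 0.177, adjusted p = 0.0652). The call of Txnip was lost without Brd9 KO replicate 1 or any 1 control library (adjusted p from 0.109 to 0.172). On log2(TPM + 1), limma called Mxd1, Mycn and Txnip (adjusted p = 0.0116, 0.0448 and 0.006). Myc was not called on that scale (-0.308, adjusted p = 0.322, limma).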
